A study of Mus musculus with 6 samples.

Results

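The genes that encode collagen chains were followed in adipose tissue of obese ob/ob and lean ob/+ mice. They were taken as the reporters (array probes) whose deposited gene symbol reads Col, a number, a and a number. This gave 54 of 39507 reporters and 40 of 25808 genes, and all 40 genes could be tested. Col3a1, the type III fibrillar chain, was not analysed here. The tissue is labelled eWAT and came from mice 9 weeks old, 3 samples of each genotype, on the genetic background C57BLKS/J according to the labels. The obese mutation inactivates the gene for leptin, the adipocyte hormone that restrains appetite. It is homozygous in ob/ob mice and heterozygous in the lean ob/+ mice. Each Agilent array carried 2 colours, the sample in Cy5 and RNA pooled from ob/+ in Cy3, so a log2 ratio of 0 means the level of the lean pool. The design text of the series speaks of islets of db/db mice, and the labels and title, which name adipose tissue and ob/ob, were followed. Column headers of the deposited intensities call the lean samples and the pool wt, whereas the labels name ob/+, and here too the labels were followed. Whether every sample is a separate animal is not said in the labels, and p-values here speak of the spread among these samples.

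Collagens are secreted proteins in which chains rich in glycine and proline wind into a helix. Fibrillar types form the tensile fibres of connective tissue, type IV forms the sheet of basement membranes, and type VI forms beaded microfilaments that link cells to the surrounding matrix. In fat, each adipocyte is wrapped in a basement membrane, and fibroblasts, progenitor cells, vascular cells and adipocytes contribute chains. Many chains assemble with partner chains, and some partners are encoded by neighbouring genes.

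Array medians of the sample channel were 0.11 to 0.15 on the authors' scale. Of all intensities 42% were below 0.1, where the recorded step of 0.01 is coarse. Log2 ratios correlated at 0.831 to 0.893 between ob/ob arrays and at -0.309 to 0.0645 between ob/+ arrays. Against a lean pool, ob/+ ratios hold only deviations among lean samples, while ob/ob ratios share the difference between genotypes. The ranges therefore do not compare the quality of the replicates of the groups. These correlations run over reporters, which do not count as independent replicates. The dyes are stated in the labels and the same on every array, so the direction was kept. Adipoq, which encodes the adipocyte hormone adiponectin, had an intensity of 28.56 ± 1.72 in ob/+ and 12.05 ± 2.05 in ob/ob (SD, n = 3). In bulk tissue, fewer cells of a type and less RNA per cell cannot be told apart.

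The fibril-associated chain Col16a1 and the type VI chains Col6a1 and Col6a2 were among those that rose in ob/ob fat, and 3 chains of type IV were among those that fell. Of the 40 chain genes, 9 rose and 6 fell at a limma adjusted p under 0.05, and 25 did not pass. Without ob/ob replicate 2 or 3 the count of rises was 4, and without ob/+ replicate 2 it was 5. The share called was 37.5%, against 24.6% of all 25750 genes tested (12.4% higher and 12.2% lower). In 21 of the 40 genes, or 52.5%, the values of the 2 genotypes did not overlap, against 40.1% of all genes. Brightness differs between chains, and 29 of them had a mean intensity above 0.1, of which 14 were called (48.3%), against 32.5% of all genes that bright. Among the 11 dimmer chains 1 was called (9.09%), against 10.5% of genes as dim. The median log2 fold change of the 40 was 0.10, against 0.00 for all genes, with a range from -1.46 to 1.17. After quantile normalization of the ratios 1 of the 15 called chains still passed, Col4a5. On the log2 scale Col16a1 was then 0.89 higher (adjusted p = 0.0595) and Col6a1 0.59 higher (adjusted p = 0.0835). Col2a1 stood at -0.24 (adjusted p = 0.18), against -0.25 without that step. That method gives all arrays the same distribution, and the ratios had SDs of 0.21 to 0.234 across reporters on ob/+ arrays and 0.574 to 0.63 on ob/ob arrays.

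**Figure D1:**
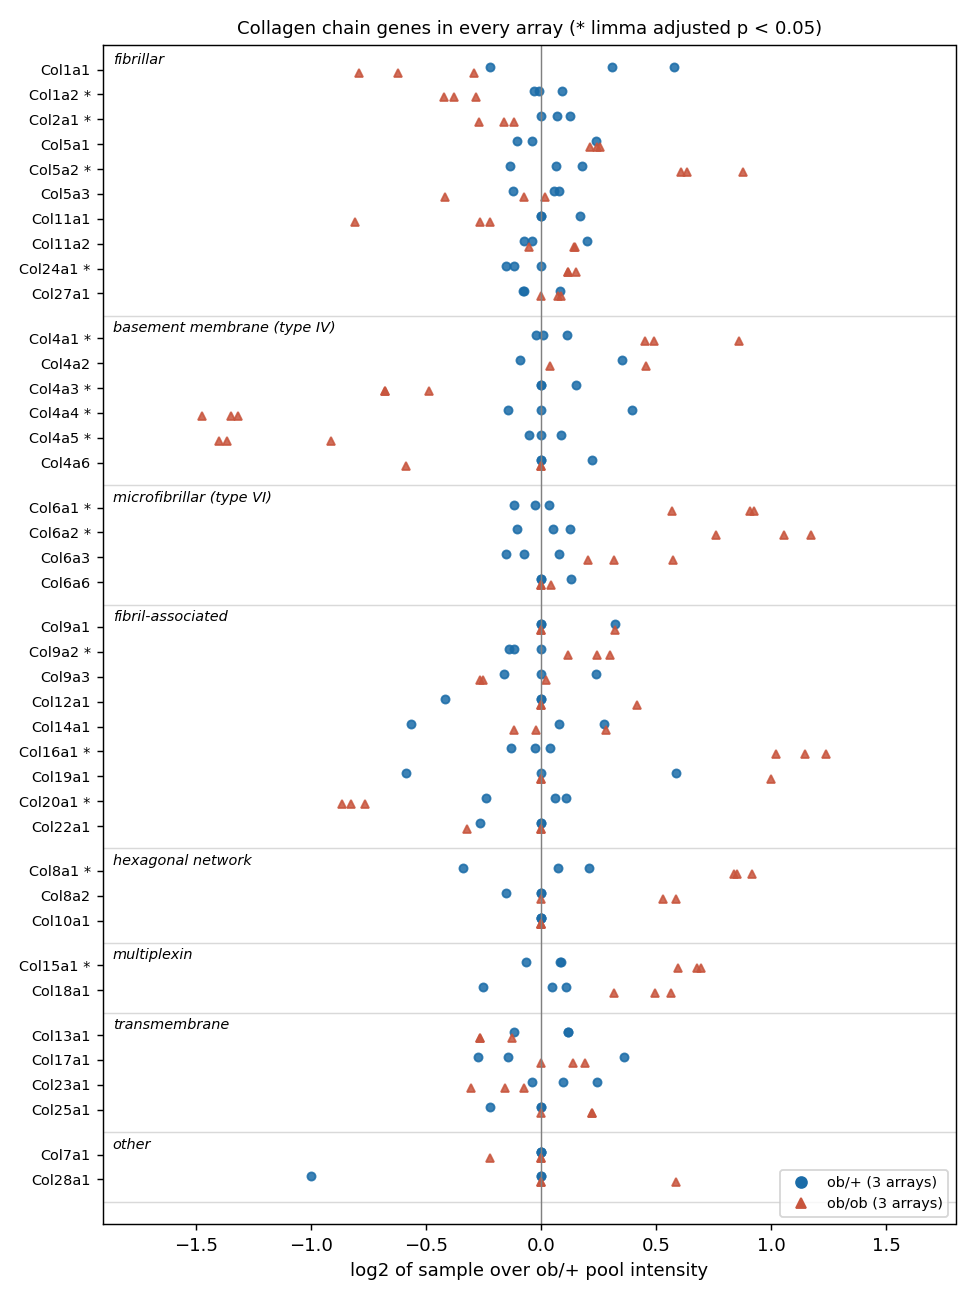
Log2 of sample over pool intensity for the 40 chain genes on every array, grouped by class, with circles for the 3 ob/+ arrays and triangles for the 3 ob/ob arrays, and a star where the limma adjusted p was under 0.05. Col16a1, Col6a1 and Col6a2 lie to the right in ob/ob, and Col4a3, Col4a4 and Col4a5 to the left.

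Fibrillar chains went in different directions. Of the 10 measured, 2 rose, 2 fell and 6 did not pass, with a median log2 fold change of -0.06. The share called was 40%, against 24.6% of all genes. Type I is the main fibre of connective tissue, and type V sits inside type I fibres and limits their width. Of type I Col1a2 fell, and of type V Col5a2 rose. Per array, the log2 ratio of Col1a2, the second type I chain, was -0.01, 0.09 and -0.03 in ob/+ and -0.42, -0.38 and -0.28 in ob/ob. The groups did not overlap, and Col1a2 fell by 0.38 ± 0.05 on the log2 scale (SE, n = 3 per group, limma adjusted p = 0.0125), a change that did not pass with the sample channel alone (-0.30, adjusted p = 0.139).

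Col1a1, the major type I chain, gave log2 ratios of 0.31, -0.22 and 0.58 in ob/+ and -0.79, -0.29 and -0.62 in ob/ob. The groups did not overlap here either, but the ob/+ arrays lay far apart (SD 0.41), and the log2 fold change of -0.79 ± 0.25 did not pass (adjusted p = 0.0971). It did pass without ob/+ replicate 2 (-1.01, adjusted p = 0.0474) and when only reporters with a mean intensity above 0.1 were tested (adjusted p = 0.033). A second, brighter Col1a1 reporter had a value on 1 ob/+ array (0.39) and on 2 ob/ob arrays (-0.76 and -0.41) and was not tested. Values were also missing for Col4a2, and these were the brightest chain reporters, at mean intensities of 37.06 and 40.11. Why values are missing was not tested.

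Col5a2, a type V chain, gave log2 ratios of 0.07, 0.18 and -0.13 in ob/+ and 0.61, 0.88 and 0.63 in ob/ob. Every ob/ob array was above every ob/+ array, and Col5a2 rose 1.59-fold (log2 0.67 ± 0.12, SE, adjusted p = 0.0199). Its dimmer reporter gave 0.70 ± 0.09 (adjusted p = 0.0103). The brighter one no longer passed when 1 of 4 arrays was left out, namely replicates 1 and 3 of ob/+ and replicates 2 and 3 of ob/ob (adjusted p up to 0.0703). Col5a1, its partner chain, depended on the reporter. The brighter one gave -0.04, -0.10 and 0.24 in ob/+ and 0.24, 0.21 and 0.26 in ob/ob, with a log2 fold change of 0.21 ± 0.10 that did not pass (adjusted p = 0.222), except without ob/+ replicate 3 (0.31, adjusted p = 0.0221). The dimmer, still well measured at a mean intensity of 5.74, gave 0.03 to 0.04 in ob/+ and 0.76 to 0.88 in ob/ob, with 0.79 ± 0.04 (adjusted p = 0.00168).

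Among the other fibrillar chains, the cartilage chain Col2a1 fell by 0.25 ± 0.06 on the log2 scale (adjusted p = 0.0402). This call was lost without any 1 of the 6 arrays (adjusted p up to 0.112) and with the sample channel alone (-0.16, adjusted p = 0.365). Col24a1 rose by 0.22 ± 0.05 (adjusted p = 0.0378), but it was dim, at a mean intensity of 0.114. Rounding to the step of 0.01 could move that value by up to 0.26. Its call was lost without any array other than ob/+ replicate 1 (adjusted p up to 0.114), and its dimmer reporter gave -0.62 ± 0.27 (adjusted p = 0.195). Col5a3, Col11a1, Col11a2 and Col27a1 had log2 fold changes of -0.49 to 0.08 and did not pass.

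Of 6 type IV chain genes, Col4a1 rose, Col4a3, Col4a4 and Col4a5 fell, and Col4a2 and Col4a6 did not pass. The median log2 fold change was -0.47, and 66.7% were called, against 24.6% of all genes. Col4a1 and Col4a2 make up the network found in nearly all basement membranes, whereas Col4a3, Col4a4 and Col4a5 together form a network known from kidney filters and other epithelia, and Col4a6 pairs with Col4a5. The promoter windows of 4 of these genes are shown, among them Col4a1 and Col4a2, which share a start region but not a call. Col4a2 had values on only 2 arrays of each group, so its missed call does not show that the pair differs. RefSeq (GRCm38.p6) lists windows from 250 bases before to 50 bases after the start for 32 of the 40 chain genes, Col4a3 not among them. The starts of Col4a1 (chr8:11312777-11313076, minus strand) and Col4a2 (chr8:11312555-11312854, plus strand) lie 21 bases apart on opposite strands, and capitals mark the 78 bases that both windows hold. In Col4a4 (chr1:82586800-82587099, minus strand) and Col4a5 (chrX:141475169-141475468, plus strand) capitals mark matches, on either strand, to the GC box GGGCGG. They also mark matches to the CCAAT box and to the TATA box TATAAA.
Col4a1: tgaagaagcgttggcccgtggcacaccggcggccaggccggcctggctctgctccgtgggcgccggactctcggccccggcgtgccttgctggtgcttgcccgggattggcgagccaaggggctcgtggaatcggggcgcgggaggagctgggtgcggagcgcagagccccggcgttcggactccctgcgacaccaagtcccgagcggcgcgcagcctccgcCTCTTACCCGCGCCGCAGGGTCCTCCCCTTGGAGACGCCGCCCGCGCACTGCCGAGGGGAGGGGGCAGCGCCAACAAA
Col4a2: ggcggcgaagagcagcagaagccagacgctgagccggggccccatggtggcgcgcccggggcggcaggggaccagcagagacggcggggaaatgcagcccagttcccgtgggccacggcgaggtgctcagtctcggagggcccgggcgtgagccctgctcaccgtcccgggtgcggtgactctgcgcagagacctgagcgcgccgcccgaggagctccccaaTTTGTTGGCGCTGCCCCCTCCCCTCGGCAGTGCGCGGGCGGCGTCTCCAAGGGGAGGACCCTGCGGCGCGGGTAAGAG
Col4a4: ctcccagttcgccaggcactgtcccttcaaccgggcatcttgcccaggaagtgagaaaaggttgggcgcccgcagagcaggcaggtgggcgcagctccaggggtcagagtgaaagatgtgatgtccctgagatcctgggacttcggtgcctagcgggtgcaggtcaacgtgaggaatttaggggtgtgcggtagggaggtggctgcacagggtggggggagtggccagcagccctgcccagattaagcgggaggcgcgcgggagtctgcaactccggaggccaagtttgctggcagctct
Col4a5: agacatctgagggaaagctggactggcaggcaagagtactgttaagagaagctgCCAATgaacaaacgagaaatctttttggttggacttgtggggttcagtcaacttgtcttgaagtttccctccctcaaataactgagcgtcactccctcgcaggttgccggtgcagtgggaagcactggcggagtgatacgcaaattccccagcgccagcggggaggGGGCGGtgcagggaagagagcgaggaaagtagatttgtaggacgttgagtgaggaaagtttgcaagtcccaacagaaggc
Counting each motif on both strands, also where matches overlap, GGGCGG was found 1 time in the Col4a1 window, 3 times in that of Col4a2, 0 times in that of Col4a4 and 1 time in that of Col4a5. CCAAT was found 1 time each in Col4a1, Col4a2 and Col4a5 and 0 times in Col4a4, and TATAAA in none of the 4. Over all 32817 windows of this length, 35.6% held GGGCGG, 37.4% CCAAT and 13.6% TATAAA. The windows of Col4a1 and Col4a2 had a GC content of 74.0% and 73.7%, against 63.3% in Col4a4, 52.7% in Col4a5 and a median of 52.7% over all windows.

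Col4a1 gave log2 ratios of 0.11, 0.01 and -0.02 in ob/+ and 0.86, 0.49 and 0.45 in ob/ob. All ob/ob arrays were higher, and Col4a1 rose 1.48-fold (log2 0.57 ± 0.13, SE, adjusted p = 0.0381). The call was lost without any array other than ob/ob replicate 1 (adjusted p up to 0.124). Its neighbour Col4a2 had values on 2 arrays of each group, -0.09 and 0.35 in ob/+ and 0.45 and 0.04 in ob/ob. These overlapped, the log2 fold change of 0.12 ± 0.26 did not pass (adjusted p = 0.817), and its sign was negative with the sample channel alone and after quantile normalization.

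Col4a4 had the largest fall of the 40 chains in the gene-level test, and 2.4% of all genes fell more. Its log2 ratios were 0.00, -0.14 and 0.39 in ob/+ and -1.35, -1.31 and -1.47 in ob/ob, and the intensity went from 1.18 ± 0.17 to 0.37 ± 0.03 (SD). The groups lay far apart, and Col4a4 fell by 1.46 ± 0.15 on the log2 scale (adjusted p = 0.00623). A second, dim reporter, at a mean intensity of 0.08, gave -2.08 ± 0.22 (adjusted p = 0.00656). Col4a5 gave 0.00, 0.09 and -0.05 in ob/+ and -0.91, -1.36 and -1.40 in ob/ob. It fell by 1.24 ± 0.15 (adjusted p = 0.00824), and it alone of the 15 called chains passed under every alternative run. Col4a3 was dim, with an intensity of 0.083 in ob/+ and 0.05 in ob/ob, and fell by 0.66 ± 0.08 (adjusted p = 0.00774), where rounding could move it by up to 0.41. The equally dim Col4a6 had -0.27 ± 0.19 and did not pass (adjusted p = 0.399).

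Of 4 microfibrillar type VI chains, Col6a1 and Col6a2 rose and 2 did not pass, with a median log2 fold change of 0.63. The share called was 50%, against 24.6% of all genes. Col6a1, Col6a2 and Col6a3 are the core chains of the beaded filament, and Col6a3 also yields the fragment endotrophin, which adipocytes release. Col6a1 gave log2 ratios of -0.03, 0.03 and -0.12 in ob/+ and 0.91, 0.57 and 0.93 in ob/ob, a rise of 1.79-fold (log2 0.84 ± 0.12, SE, adjusted p = 0.0114). Col6a2, which neighbours Col6a1 in the genome, gave -0.11, 0.13 and 0.05 in ob/+ and 1.17, 0.76 and 1.06 in ob/ob, a rise of 1.96-fold (log2 0.97 ± 0.13, adjusted p = 0.0105). In both genes all ob/ob arrays were above all ob/+ arrays, and Col6a2 no longer passed with the third ob/ob replicate left out (adjusted p = 0.0507).

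Col6a3 was measured by 3 reporters. The brightest gave 0.08, -0.08 and -0.15 in ob/+ and 0.57, 0.32 and 0.20 in ob/ob, and its log2 fold change of 0.41 ± 0.12 did not pass (adjusted p = 0.0744), although the groups did not overlap. It passed when only reporters with a mean intensity above 0.1 were tested (adjusted p = 0.0317) or when all 3 reporters were averaged (0.59, adjusted p = 0.0236). The second reporter gave 0.71 ± 0.12 (adjusted p = 0.0204) and the dimmest 0.63 ± 0.24 (adjusted p = 0.155). Col6a6, a type VI chain of separate assemblies, had -0.03 ± 0.05 (adjusted p = 0.707).

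Fibril-associated chains, which coat fibres rather than form them, held the largest rise. Of 9 measured, 2 rose, 1 fell and 6 did not pass, with a median log2 fold change of 0.12. The share called was 33.3%, near the 24.6% of all genes. Col16a1 gave log2 ratios of -0.13, 0.04 and -0.03 in ob/+ and 1.15, 1.02 and 1.24 in ob/ob, and its intensity went from 5.34 ± 0.09 to 13.03 ± 1.49 (SD). The ob/ob arrays stood well apart from the ob/+ arrays, and Col16a1 rose 2.26-fold (log2 1.17 ± 0.08, SE, adjusted p = 0.00266). Its call held without any 1 array, and 2.77% of all genes rose more. Col20a1 gave 0.11, -0.24 and 0.06 in ob/+ and -0.77, -0.82 and -0.87 in ob/ob and fell by 0.79 ± 0.10 (adjusted p = 0.0103). Its dimmer reporter, at a mean intensity of 0.115, went the other way (0.25 ± 0.09, adjusted p = 0.127). Col9a2, a cartilage chain that was dim here at 0.125, rose by 0.30 ± 0.07 (adjusted p = 0.0364), and rounding could move that by up to 0.23. With the sample channel alone it did not pass, nor did it when any array other than the third ob/ob replicate was left out (adjusted p up to 0.116). Col14a1, which binds fibres in skin and tendon, spread widely in ob/+ (0.08, 0.28 and -0.57) and had 0.12 ± 0.26. Col9a1, Col9a3, Col12a1, Col19a1 and Col22a1 had -0.19 to 0.33 and did not pass, and all but Col9a3 had a mean intensity under 0.1.

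Of 3 chains of short network collagens 1 rose and 2 did not pass, and of 2 multiplexins 1 rose and 1 did not pass. The shares called were 33.3% and 50%, against 24.6% of all genes. Col8a1, a short chain made by vascular and other mesenchymal cells, gave 0.21, 0.07 and -0.34 in ob/+ and 0.84, 0.85 and 0.92 in ob/ob, with the groups apart. It rose 1.85-fold (log2 0.89 ± 0.15, SE, adjusted p = 0.02), and it no longer passed when ob/+ replicate 2 or any of the ob/ob arrays was left out (adjusted p up to 0.0801). Its next reporter gave 0.72 ± 0.14 (adjusted p = 0.0276), and its dimmest, at a mean intensity of 0.0925, 0.19 ± 0.16 (adjusted p = 0.499). Its partner Col8a2 had 0.42 ± 0.18 (adjusted p = 0.183), and Col10a1, of growth plate cartilage, was at 0.03 to 0.04 on every array with a ratio of 0.00 on each.

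The multiplexins Col15a1 and Col18a1 lie at basement membranes and carry the fragments restin and endostatin at their ends. Col15a1 gave 0.08, 0.09 and -0.06 in ob/+ and 0.68, 0.59 and 0.69 in ob/ob. It rose 1.54-fold (log2 0.62 ± 0.06, SE, adjusted p = 0.00496), and this held without any 1 array. Col18a1 gave 0.05, 0.11 and -0.25 in ob/+ and 0.49, 0.32 and 0.56 in ob/ob. The groups did not overlap, but 0.49 ± 0.12 did not pass (adjusted p = 0.0528), and it passed when only reporters with a mean intensity above 0.1 were tested (adjusted p = 0.0195). No transmembrane chain passed, with Col13a1 at -0.26 ± 0.08, Col17a1 at 0.13 ± 0.19, Col23a1 at -0.28 ± 0.10 and Col25a1 at 0.22 ± 0.10. The anchoring fibril chain Col7a1 (-0.07 ± 0.07) and Col28a1 (0.53 ± 0.35), both dim, did not pass either.

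**Figure D2:**
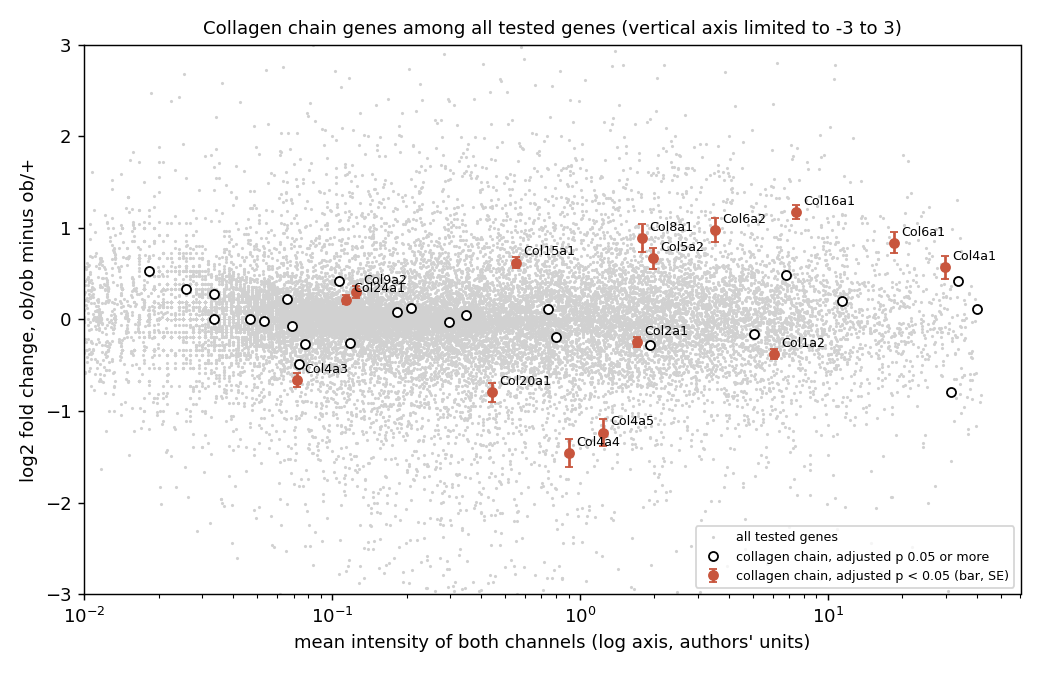
Log2 fold change, ob/ob minus ob/+, against the mean intensity of both channels on a log axis, for all tested genes (grey), chains past an adjusted p of 0.05 (filled, bars are SE) and the other chains (open). Called chains run from Col4a4 at -1.46 to Col16a1 at 1.17 and, apart from Col4a3, had a mean intensity above 0.1.

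Of the 40 genes, 12 had several reporters. The direction was shared by all tested reporters of Col4a4, Col5a1, Col5a2, Col6a3 and Col8a1, and it differed for Col11a1, Col14a1, Col20a1, Col24a1 and Col27a1. Col25a1 had 0.22 and 0.00, and Col1a1 had 1 tested reporter. For Col20a1 and Col24a1 the brighter reporter passed and the dimmer did not, and for Col5a1 it was the reverse. Of the Col6a3 reporters only the second brightest passed, and of those of Col8a1 only the dimmest did not. Probe positions within the transcripts were not used here, so which transcript form each reporter reads was not tested.

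**Figure D3:**
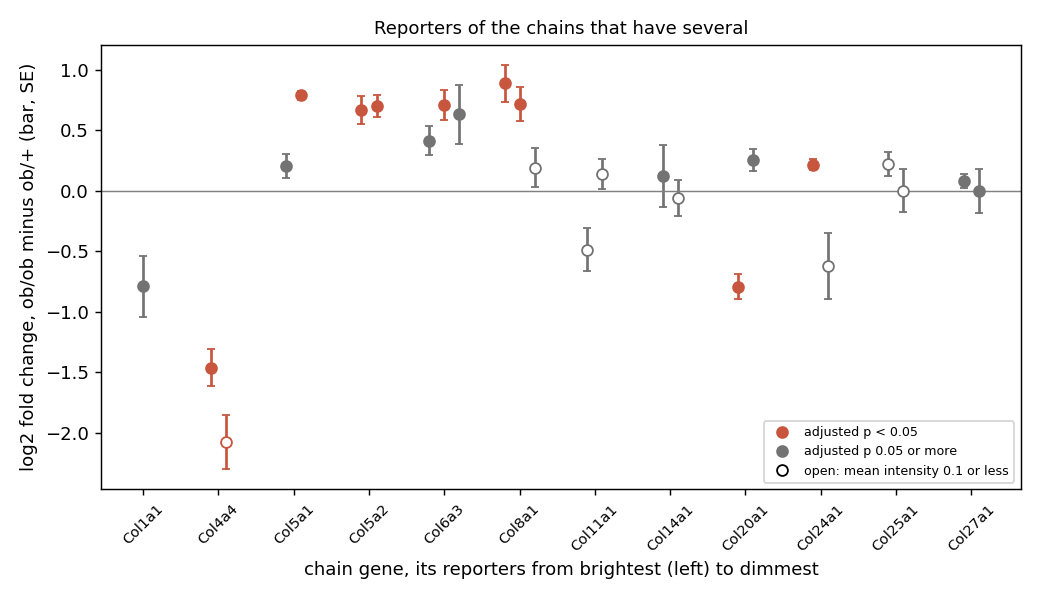
Log2 fold change with SE for each tested reporter of the chains that have several, brightest on the left, in red where the adjusted p was under 0.05 and open where the mean intensity was 0.1 or less. The reporters of Col5a2 and Col4a4 pass together, those of Col20a1 and Col24a1 lie on opposite sides of 0, and 1 of the reporters of Col1a1 was not tested.

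Partner chains of the same collagen type were compared within each array, as the difference of their log2 ratios, over 6 pairs, with the brightest tested reporter of each chain. Col6a1 minus Col6a2 was -0.06 ± 0.13 in ob/+ and -0.20 ± 0.07 in ob/ob (SD, n = 3), and the groups overlapped (exact permutation test, two-sided, p = 0.2, adjusted p = 0.24 over the pairs). Col6a1 minus Col6a3 was 0.01 ± 0.11 in ob/+ and 0.44 ± 0.25 in ob/ob and did not overlap, with an exact permutation p = 0.1, the smallest that 3 against 3 allows (adjusted p = 0.2). This depended on the reporter, a comparison chosen after seeing the data. With the second Col6a3 reporter the ob/ob arrays gave 0.43, -0.30 and 0.26, the groups overlapped, and the difference between their means was 0.13 in place of 0.42. Col5a1 minus Col5a2 was 0.00 ± 0.34 and -0.47 ± 0.17, and Col8a1 minus Col8a2 was 0.03 ± 0.20 and 0.50 ± 0.30, each without overlap. With the dimmer Col5a1 reporter, or with either other Col8a1 reporter, these groups overlapped too, and the difference for type V was 0.12 in place of -0.46. With the dimmer Col5a2 reporter the type V groups stayed apart, and the difference was -0.50. Col1a1 minus Col1a2 overlapped, at 0.20 ± 0.47 and -0.21 ± 0.25. Col4a1 minus Col4a2 had 2 arrays per group, at 0.10 and -0.37 in ob/+ and 0.41 and 0.45 in ob/ob, which did not overlap and where the smallest possible p is 0.333. No pair can reach 0.05 at these sizes.

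**Figure D4:**
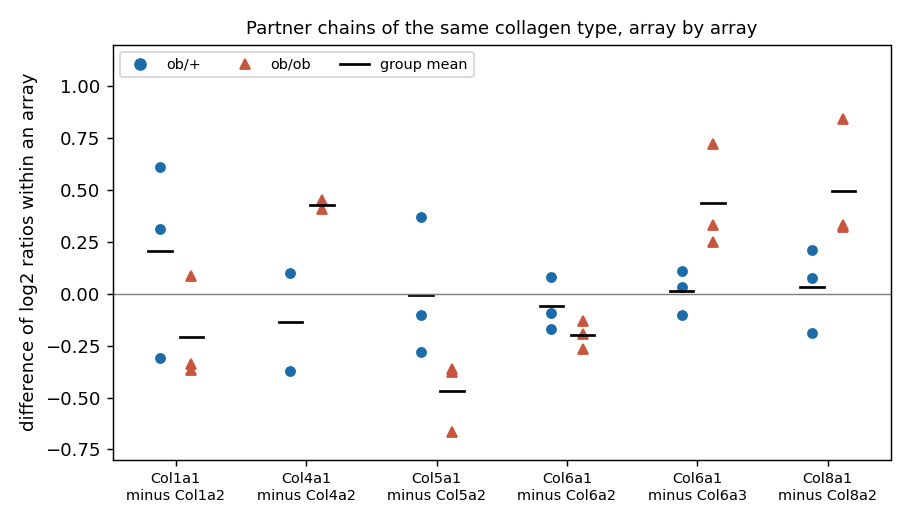
Difference of the log2 ratios of partner chains within each array, with circles for ob/+, triangles for ob/ob and bars for the group means. Each chain is read by its brightest tested reporter. With that of Col6a3, Col6a1 minus Col6a3 is 0.25 to 0.72 on the ob/ob arrays, while Col6a1 minus Col6a2 runs from -0.27 to 0.08 over the 6 arrays. Col4a1 minus Col4a2 has 2 arrays per group.

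Enzymes and chaperones that mature collagen were mostly higher where they passed. Of 29 tested genes of maturation and secretion, 12 rose and 2 fell, a share of 48.3% against 24.6% of all genes, with a median log2 fold change of 0.33. Lox, which oxidises lysines so that chains crosslink, rose 4.2-fold (log2 2.07 ± 0.12, SE, adjusted p = 0.00228). Serpinh1, the collagen chaperone of the endoplasmic reticulum, rose by 1.05 ± 0.09. Tll1 and Adamts2, proteases that trim procollagen, rose by 0.45 ± 0.03 and 0.42 ± 0.03. Adamts3, of the same family, had 1.00 ± 0.02, at intensities of 0.0133 in ob/+ and 0.02 in ob/ob, where rounding could move it by more than its size. Loxl1, a relative of Lox, fell by 0.42 ± 0.07 and the prolyl hydroxylase gene P3h3 by 0.32 ± 0.05.

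Of 17 genes of collagen receptors and breakdown, 5 rose and none fell. The share of 29.4% is near the 24.6% of all genes, and the median was 0.16. Ctsk, a lysosomal collagenase, rose 2.83-fold (adjusted p = 0.00638), and Fap, a fibroblast protease, 1.83-fold (adjusted p = 0.0147). Mrc2, a collagen uptake receptor, and Mmp13, an interstitial collagenase, passed at 1.11 ± 0.10 and 1.38 ± 0.24 but were dim, and rounding could move them by up to 1.24 and 0.57. Of 11 basement membrane partners of type IV, 2 rose and 5 fell (63.6% against 24.6% of all genes), with a median of -0.33. All 11 had a mean intensity above 0.1, and of all genes that bright 32.5% were called. The laminin chains Lama4, Lamb1 and Lamb2 fell by 0.82 ± 0.07, 0.75 ± 0.11 and 0.77 ± 0.11, and Agrn, the heparan sulphate proteoglycan agrin, by 0.71 ± 0.09. Hspg2, which encodes perlecan, rose by 0.60 ± 0.13 and Lama5 by 0.55 ± 0.12. Of the 29, 17 and 11 partner genes together, 26 were called, and without 1 array the count was 14 to 22, lowest without ob/+ replicate 1. Over all genes the count also fell in these fits, from 6330 to between 3134 and 5365.

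Markers of several cell types moved as well, and their part in the collagen values was not tested. The counts stand against 12.4% of all genes called higher and 12.2% called lower. Of 12 fibroblast and progenitor markers, 2 rose and 6 fell, with Pdgfra at -0.84 ± 0.08 and Dpt at -1.15 ± 0.18 among the falls and Lum (0.94 ± 0.11) and Pdgfrb (0.67 ± 0.09) the rises. The summed intensity of the 10 with values on all arrays was 35.47 to 42.61 in ob/+ and 30.7 to 34.23 in ob/ob. Of 8 macrophage markers, 7 rose and 1 fell, from a sum of 28.69 to 30.05 to one of 49.72 to 102.8. Of 8 epididymal epithelium markers, 7 fell and none rose, and their sum went from 13.28 to 36.11 in ob/+ to 0.75 to 0.94 in ob/ob. Of this list, Cdh16 and Epcam had ob/ob intensities of 0.04 and 0.037, and the keratins Krt8 and Krt18 had 0.27 and 0.16. The type IV chains Col4a3, Col4a4 and Col4a5 were also lower in ob/ob, as was every gene called lower, and a link to these markers was not tested.

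Of 6 mesothelial markers, 2 fell and none rose, from a sum of 13.25 to 16.17 to one of 4.55 to 9.67. Of 5 Schwann cell markers, 3 fell and none rose (1.14 to 1.24 against 0.6 to 0.7). Of 8 smooth muscle and pericyte markers, 1 rose and 2 fell (25.3 to 42 against 18.93 to 20.77). Their log2 fold changes ran from -3.95 to 0.44, with a median of -0.40. Acta2, the myofibroblast actin, had -0.38 ± 0.23 (limma adjusted p = 0.332). None of 8 endothelial markers passed in limma, also at an unadjusted p under 0.05 (18.08 to 20.43 against 14.34 to 20.03). Of 8 adipocyte markers tested, 1 rose and 4 fell (96.87 to 107 against 52.9 to 69.79). The rise was that of Lep, the leptin gene mutated in these mice (2.12 ± 0.08, limma adjusted p = 0.000839), and Fabp4, Adipoq and Retn were among the falls.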

How the data were processed

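Adipose RNA of 3 ob/ob and 3 ob/+ samples was amplified, labelled and hybridised against an ob/+ pool, 1 array per sample with no dye swap, per the labels' protocols. The submitters' processing notes name Agilent Feature Extraction 8.5.1.1. For both channels the authors deposited linear intensity values, of which 97.45% come in steps of 0.01. The sources used here do not give their normalization. In the series matrix the authors deposited log10 ratios, which match the log2 ratio of sample over pool intensity within 0.02 (log2) at 100% of reporters. They carry the replicate numbers and served the fits that leave out an array. Table columns were assigned to groups only, so values per array are listed without a replicate number. The other table columns (deposited p-values) were not used.

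Log2 of sample over pool intensity was fitted per reporter with limma 3.58.1 in R 4.3.3 (lmFit, eBayes, two-sided, ob/ob minus ob/+), for reporters with values on at least 2 arrays of each group. The Benjamini-Hochberg adjustment ran over all 39407 tested reporters, and calls were made at 0.05. A gene was represented by its brightest tested reporter. Symbols other than those of the chains were updated through a reference gene table. Rounding limits add the largest possible error of every intensity in 1 direction. Named chains are those called and a set usually abundant in fat, and list genes are among the 4 lowest p of each list, or named otherwise for contrast after their values were seen. Members and lists were chosen with earlier results of these data known. The fit was tested on simulated data. Figures were drawn with matplotlib 3.10.9 in Python 3.11.15. Alternatives are given in the closing section.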

Additional observations from a re-analysis of the deposited data

How the results depend on the processing

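Without alternatives 6330 genes, 9 higher chains, 6 lower chains and 26 partner genes were called. After quantile normalization of the ratios the counts were 557, 0, 1 and 8, and at an unadjusted p under 0.05 limma then gave 11 chains. The cause was not tested. Leaving out 1 array gave 3134 to 5365 called genes, 4 to 7 higher chains, 5 to 7 lower chains and 14 to 22 partner genes. Fewest higher chains, 4, were called without ob/ob replicate 2 or 3, and 5 without ob/+ replicate 2. Of the 15 called chains 8 kept their call without any 1 array, and 7 lost it without at least 1. Same-numbered samples of the groups did not deviate together (r = 0.0617, -0.0624 and 0.00346 across reporters), against -0.0933 to 0.103 for samples of different numbers. With 3 samples per group this check cannot exclude that the numbers pair them. With the replicate number as a block the counts were 2581 genes, 4 higher and 1 lower chains and 15 partner genes. Of the 15 called chains 4 kept their call in that fit, namely Col15a1, Col16a1, Col5a2 and Col4a5. Col6a3 passed there as well (limma adjusted p = 0.046). Col6a1 (limma adjusted p = 0.0669), Col6a2 (0.0694) and Col4a4 (0.0518) were among the called chains that did not. The other alternatives moved no count by over 1.5 times. These were the series matrix ratios, the sample channel alone (which lowered the median of all genes to -0.13), an added intensity of 0.05, filters on dim reporters, an intensity trend, array weights, and the dimmest reporter or the mean of all reporters. The sign turned for Col4a2 with the sample channel alone (-0.11) and after quantile normalization (-0.087). It turned for Col20a1 with its dimmest reporter (0.25), and for Col24a1 with its dimmest reporter (-0.62) or the mean of its reporters (-0.20). With the second Col5a1 reporter, Col5a1 minus Col5a2 was 0.12, and with the third Col8a1 reporter, Col8a1 minus Col8a2 was -0.23, both turned in sign and chosen after seeing the data. Of the 15 called chains, 13 (all but Col20a1 and Col24a1) kept their sign under every alternative run. The step of 0.01 limits the 11 chains at a mean intensity of 0.1 or less, and 6 arrays limit the precision of every value.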

Other observations

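Another 3 reporters are named as collagen chains only after their symbols are updated, and they are not among the 40 genes above. The reporter deposited as Gm7455, which the reference gene table lists as a synonym of Col6a5, was bright and had a fall larger than any of the 40, a description chosen after its values were seen. Its intensity was 35.49, 32.99 and 41.7 on the ob/+ arrays and 4.19, 5.61 and 6.48 on the ob/ob arrays. The log2 fold change was -2.97 ± 0.18 (SE, limma adjusted p = 0.00243), which is 7.83-fold lower in ob/ob, while the type VI chains Col6a1 and Col6a2 rose. The probe sequence was not used here, so the name rests on the synonym alone. The reporter deposited as Dvwa, now Col6a4, had -0.49 ± 0.13 (adjusted p = 0.0577), and the reporter deposited as Emid2, now Col26a1, had -0.03 ± 0.04 (adjusted p = 0.638).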
